A study of Mus musculus with 123 samples.

Results

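Solute carriers are a very large group of membrane transporters, and their gene symbols (Slc) carry the number of the family and of the member. The 246 genes described here are all measured genes whose annotated mouse symbol begins with Slc and a digit, except Slc26a4, Slc12a2 and Slc7a2, which leaves 246 of the 13053 genes tested, in 49 families. The rule for membership used the symbol and those 3 exceptions, and it was set after earlier results of these data had been seen. For a gene with several probe sets, signal decided the choice: the one brightest on average was used. The symbols of 5 of them (Slc9a3r1, Slc9a3r2, Slc4a1ap, Slc7a6os and Slc2a4rg-ps) belong to genes that are named after a carrier and are not transporters themselves. Slc proteins move sugars, amino acids, ions, metals, vitamins and nucleotides across the plasma membrane or the membranes of organelles, usually by exchange or by using the sodium or proton gradient. In the lung, alveolar type II cells use them to take up phosphate for surfactant, airway cells use them to set the salt, acid and sugar content of the surface liquid, and activated leukocytes use them to take up the amino acids and glucose they grow on.

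Whole lungs of BALB/c mice were profiled on Affymetrix arrays, 1 array per mouse, after sensitization to ovalbumin (OVA), an egg protein used to provoke allergic airway disease, or without it. The naive arm had 61 mice (8 each at 0, 6, 24, 72 and 168 h, and 7 each at 2, 48 and 96 h), and the sensitized arm had 62 (6 at 24 h and 8 at each other time). Hours count from the challenge. The labels name no transgene or deleted allele and no age or sex. The study's design has OVA given to both arms at challenge, but naive sample titles read PBS, so what the naive mice received is not settled, nor is whether 0 h precedes the last challenge. All levels are deposited log2 signals, a difference is the sensitized minus the naive mean on the log2 scale with its standard error (SE), and a difference of 1 is a 2-fold change. A gene is said to be called where limma's p, adjusted by Benjamini-Hochberg over all 13053 genes, was under 0.05.

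Tissue composition was checked on marker lists. Lists for alveolar type I and type II cells were high in every group, and the mean of the 8 club and goblet cell genes was 1.0 to 2.46 higher in sensitized than in naive lungs, depending on the time. Some lists of immune cells were also higher, by up to 1.6 for eosinophils (5 of 8 genes measured, 24 h) and 1.67 for plasma cells (8 genes, 72 h). T cells reached 0.76 (7 of 8 genes, 24 h), macrophages 0.68 (8 genes, 24 h) and the 3 measured cell cycle genes of 8 1.79 at 72 h. The neutrophil list (5 of 8 genes) went from 0.78 at 2 h to -0.69 at 96 h. The list of 8 mast cell and platelet genes lay between -0.14 and -0.02. The adipocyte list was at -1.26 at 0 h, and the endothelial list between -0.24 and -0.06. The list of 8 cardiac muscle genes lay between -0.97 (24 h) and 0.04 (96 h). The part of these lists in the carriers' differences was not tested. A list of 8 squamous epithelium genes was at 8.75 or more on 7 arrays and at 6.97 or less on the others, and 3 further arrays had a skeletal muscle list at 8 or more. These 10 arrays were kept. The naive ones were 0 h replicates 1 and 3, 2 h replicate 2, 6 h replicates 1 and 8 and 24 h replicate 8. The sensitized ones were 2 h replicate 6, 6 h replicates 3 and 7 and 48 h replicate 8. Values without the 10 are given for Slc6a2, Slc2a4 and Slc34a2. Of 73 named carriers at their time of largest difference, 4 lost their call without the 10 and 2 gained one. The naive mouse with replicate number 4 at 168 h stood apart in carriers described below and in marker lists: its macrophage list was at 11.55 (other naive mice of that time 10.31 to 10.53), its cell cycle list at 9.12 (7.47 to 8.42), its cardiac muscle list at 9.5 (11.39 to 12.48), its adipocyte list at 6.43 (7.42 to 8.68) and its endothelial list at 11.93 (12.24 to 12.44). Its club and goblet cell list, at 9.99, lay within the others (9.86 to 10.44). Whether its label is right was not tested.

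The starts of 4 genes are shown first, because Slc5a1, Slc6a20a and Slc7a8 had the highest mean differences over the 8 times and because Slc7a11 is a textbook target of ATF4, the factor of the amino acid response. Each is the RefSeq sequence (GRCm38.p6) from 250 bases before to 50 bases after an annotated start, written 5′ to 3′ on the gene's own strand. Capitals mark matches to any of 4 motifs searched on both strands, which did not overlap here: TGATGNAA (the amino acid response element), TTC and GAA with any 4 bases between them (the STAT6 site), TGACNNNGC (the antioxidant response element core) and CACGTG (the E-box).
Slc5a1: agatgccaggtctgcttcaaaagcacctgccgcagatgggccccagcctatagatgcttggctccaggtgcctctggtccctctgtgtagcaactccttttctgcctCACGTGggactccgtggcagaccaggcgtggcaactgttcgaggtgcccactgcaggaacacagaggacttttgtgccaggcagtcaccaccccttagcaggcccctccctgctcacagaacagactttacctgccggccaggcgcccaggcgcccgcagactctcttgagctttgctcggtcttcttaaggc
Slc6a20a: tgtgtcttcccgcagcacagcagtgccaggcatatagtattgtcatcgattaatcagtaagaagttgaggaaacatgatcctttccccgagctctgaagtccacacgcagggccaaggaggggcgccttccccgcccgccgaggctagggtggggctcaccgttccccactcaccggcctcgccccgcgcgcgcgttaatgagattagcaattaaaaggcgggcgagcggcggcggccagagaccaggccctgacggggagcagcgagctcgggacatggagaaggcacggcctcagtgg
Slc7a8: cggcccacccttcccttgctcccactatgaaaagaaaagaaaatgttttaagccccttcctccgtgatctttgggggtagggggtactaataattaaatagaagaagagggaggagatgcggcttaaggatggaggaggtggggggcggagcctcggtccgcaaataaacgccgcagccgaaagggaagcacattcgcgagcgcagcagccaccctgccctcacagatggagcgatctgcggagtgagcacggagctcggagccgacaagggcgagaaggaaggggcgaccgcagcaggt
Slc7a11: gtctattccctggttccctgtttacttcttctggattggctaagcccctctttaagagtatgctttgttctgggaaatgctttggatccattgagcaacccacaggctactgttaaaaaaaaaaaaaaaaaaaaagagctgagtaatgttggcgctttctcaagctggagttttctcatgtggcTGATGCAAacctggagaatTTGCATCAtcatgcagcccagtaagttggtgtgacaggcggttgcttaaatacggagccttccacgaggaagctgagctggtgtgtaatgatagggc
The Slc5a1 window (chr5:33103969-33104268, plus strand) held 1 E-box, 143 bases before the start. The Slc7a11 window (chr3:50443564-50443863, minus strand) held 2 copies of TGATGNAA, at 66 and 47 bases before the start and on opposite strands. That start lies inside the gene's annotated span, which runs from 50364936 to 50499087. The windows of Slc6a20a (chr9:123678783-123679082, minus strand) and Slc7a8 (chr14:54781837-54782136, minus strand) held none of the 4. Of all 32851 promoter windows of that length, 3.97% held TGATGNAA, 6.95% the STAT6 site, 12.4% TGACNNNGC and 7.15% CACGTG. A match is a stretch of letters and was not tested as a site. An entry was found for 192 of the 246 genes.

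As a group the carriers were called about as often as other genes. At 0 h 40 were higher and 33 lower in sensitized lungs, 29.7% of the members against 26.5% of all genes (14.2% higher and 12.3% lower). At 2 h 8 were higher and 1 lower, 3.66% against 3.76% (1.84% higher and 1.92% lower). The count was highest at 6 h, with 57 higher and 88 lower, 58.9% against 57.8% (24.6% higher and 33.2% lower). At 24 h 67 were higher and 50 lower, 47.6% against 47.7% (22.8% higher and 24.9% lower). At 48 h it was 62 and 32, 38.2% against 35.1% (17% higher and 18.1% lower), and at 72 h 64 and 58, 49.6% against 48.5% (22.2% higher and 26.3% lower). At 96 h 59 were higher and 39 lower, 39.8% against 42% (21.2% higher and 20.8% lower). By 168 h 13 were higher and 2 lower, 6.1% against 4.81% (3.4% higher and 1.41% lower).

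The balance of directions depended on the scaling. With each array centred on its own median, 48 h had 51 higher and 46 lower, 96 h had 44 and 60, and 168 h had 13 and 4. The larger side also turned at 0 h (33 higher, 39 lower), 24 h (58 and 62) and 72 h (55 and 74). Leaving out 1 mouse mattered most at 0 and 2 h. Without sensitized replicate 1 the count at 0 h was 39 in place of 73, and without sensitized replicate 6 it was 42. At 2 h the 9 calls became 5 without naive replicate 2, naive replicate 6, sensitized replicate 3 or sensitized replicate 8, and 14 without sensitized replicate 6.

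Most differences were small: 178 of the 246 genes stayed under 0.5 either way at every time. Complete separation of the arms was most frequent at 24 h, when every sensitized mouse lay above every naive mouse in 44 members (13% of all genes) and below in 27 (9.11% of all genes). Only 6 sensitized mice were measured at 24 h, against 8 at each other time, and fewer mice make separation easier. The corresponding counts were 5 above and 0 below at 0 h (1.98% and 0.605% of all genes), 2 and 1 at 2 h (0.429% and 0.651%) and 8 and 3 at 6 h (1.5% and 0.743%). They were 19 and 5 at 48 h (5.98% and 4.04%), 22 and 19 at 72 h (6.92% and 8.17%), 22 and 7 at 96 h (6.13% and 5.06%) and 2 and 0 at 168 h (0.383% and 0.115%). No call was made at any time in 28 carriers (13.6% of all genes). Calls at 6 or more times went to 16 higher carriers (6.29% of all genes) and 10 lower ones (4.45%).

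**Figure D1:**
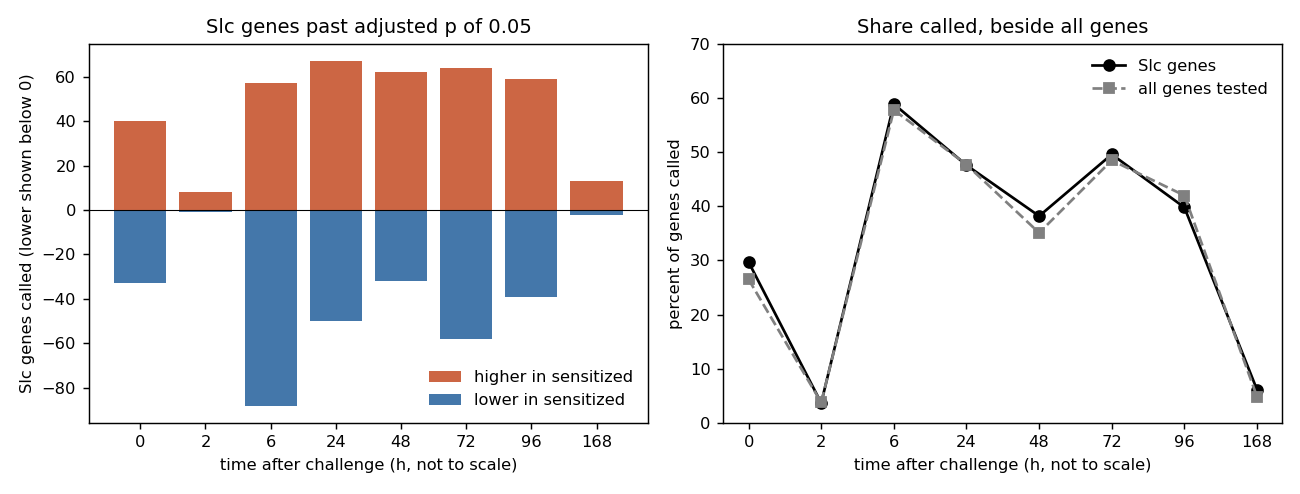
Left, the number of the 246 Slc genes called at each time, with genes higher in sensitized lungs above 0 and genes lower in them drawn below 0. Right, the share of Slc genes called (circles) beside the share of all 13053 genes called (squares). Both shares run close together, from under 4% at 2 h to 58.9% and 57.8% at 6 h.

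Sodium-coupled carriers gave the largest differences of the set. Slc5a1 encodes the sodium glucose cotransporter SGLT1, known from uptake of glucose in the gut and kidney. At 24 h its level ran from 7.37 to 8.24 (median 7.63) in 8 naive mice and from 10.99 to 11.63 (median 11.46) in 6 sensitized mice. The groups lay far apart, and the difference was 3.69 ± 0.34, a 12.9-fold change (adjusted p = 2.95e-16, limma). Slc5a1 was called higher at all 8 times, with differences of 2.1 ± 0.31 at 0 h, 1.51 ± 0.33 at 2 h and 1.62 ± 0.31 at 168 h at the low end. Its fall from 24 to 168 h was itself called, at -2.07 ± 0.46 (adjusted p = 0.000453).

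The level of Slc5a1 was uneven among sensitized mice at 2 h, from 7.82 to 11.8 (median 8.95), against 7.43 to 8.18 (median 7.8) in naive mice. Of the 8 sensitized mice 4 lay above every naive mouse, and the other 4 lay within the naive range. At 6 h sensitized mice ran from 8.7 to 11.96 (median 11.84) and all lay above the naive maximum of 8.49. The second probe set of the gene gave the same direction, with a mean difference of 2.14 against 2.62 for the one used. In bulk tissue more cells of a type and more RNA per cell cannot be told apart. The club and goblet cell list ran from 9.68 to 10.34 (median 10.02) in naive and from 12.21 to 12.83 (median 12.47) in sensitized lungs at 24 h, and its part in the difference of Slc5a1 was not tested.

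Slc6a20a, a carrier of proline and other imino acids, followed closely with a mean difference over the 8 times of 2.53 ± 0.12, beside 2.62 ± 0.11 for Slc5a1. Naive mice at 72 h ran from 7.0 to 7.65 (median 7.31) and sensitized mice from 9.13 to 11.34 (median 11.06). No mouse of the arms overlapped, and the difference was 3.42 ± 0.32, or 10.7-fold (adjusted p = 3.33e-16, limma). It was called at 7 of the 8 times. At 2 h its difference was 0.77 ± 0.33 (adjusted p = 0.19), again with 4 of 8 sensitized mice above all naive mice. The gene had 1 probe set, and cross-hybridization with its close paralog Slc6a20b was not tested.

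Of the 10 measured genes of family 7, the cationic amino acid carriers and the light subunits of heterodimeric transporters, 7 had a higher mean difference and 1 a lower one. Slc7a6os, numbered with the family but no transporter, is among the 7, and so is the dim Slc7a11, whose limit is given below. Over all 13053 genes the mean difference was called in 72.5%, with 33.3% higher and 39.2% lower, and over the 246 carriers in 75.6%, with 95 higher and 91 lower. With arrays centred on their medians the carriers split into 80 higher and 103 lower, so the larger side turned. All 13053 genes then had 3718 higher and 5952 lower, and family 7 had 6 higher and 1 lower. The family's median difference was 0.21, against 0 for the carriers and -0.01 for all genes. Slc7a8 and Slc7a5 encode LAT2 and LAT1, which exchange large neutral amino acids such as leucine. Slc7a8 ran from 7.42 to 7.87 (median 7.63) in naive mice and from 8.87 to 9.34 (median 8.99) in sensitized mice at 24 h. The ranges were apart, at a difference of 1.41 ± 0.16 (adjusted p = 1.05e-12, limma). Slc5a1 and Slc7a8 were the only members called higher at all 8 times, and no member was called lower at all of them.

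LAT1 (Slc7a5) had its largest difference at 6 h and LAT2 (Slc7a8) at 48 h, and this order was not tested. Slc7a5 at 6 h ran from 9.26 to 9.68 (median 9.55) in naive mice and from 9.66 to 11.74 (median 11.44) in sensitized mice. Sensitized replicate 3, the lowest, lay just inside the naive range, and the other 7 lay above it. The difference was 1.58 ± 0.18 (adjusted p = 2.04e-12, limma), a rise from that at 0 h by 0.88 ± 0.26 (adjusted p = 0.00731). Its heavy chain partner Slc3a2 (4F2hc), which carries LAT1 and xCT to the cell surface, differed by 0.2 ± 0.04 at 6 h (adjusted p = 7.32e-06) and was called at no other time.

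Slc7a11 encodes xCT, which imports cystine for glutathione synthesis in exchange for glutamate. At 6 h naive mice ran from 5.05 to 6.25 (median 5.62) and sensitized mice from 5.37 to 8.68 (median 7.45). At 24 h the naive range was 5.16 to 6.22 (median 5.41) and the sensitized range 6.25 to 8.23 (median 7.05). The arms overlapped at 6 h and were narrowly apart at 24 h. Differences of 1.67 ± 0.25 and 1.7 ± 0.27 at these times (adjusted p = 8e-09 and 8.11e-08, limma) were followed by 0.07 ± 0.25 at 168 h (adjusted p = 0.924). At 6 and 24 h all naive levels lay under 7.03, which every deposited probe set reached on some array. If signal decided which were deposited, Slc7a11 could be measured only through sensitized mice, which was not tested.

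Slc7a1, the main carrier of arginine and lysine, was higher by 0.53 ± 0.06 at 6 h (adjusted p = 1.32e-12), and its second probe set by 0.89. Slc7a6, an exchanger of arginine for neutral amino acids, differed by 0.6 ± 0.09 at 6 h (adjusted p = 8.49e-09). The member of family 7 that went the other way was Slc7a10, an exchanger of small neutral amino acids known from neurons and fat. It ran from 10.65 to 11.31 (median 11.12) in naive mice and from 9.63 to 10.56 (median 10.21) in sensitized mice at 24 h. Without overlap, the difference was -0.96 ± 0.18 (adjusted p = 3.47e-06, limma). The 6 measured adipocyte genes of 8 listed had a median of 8.25 (7.19 to 8.85) in naive and 7.41 (6.78 to 7.84) in sensitized lungs at that time, and their part in the result was not tested.

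**Figure D2:**
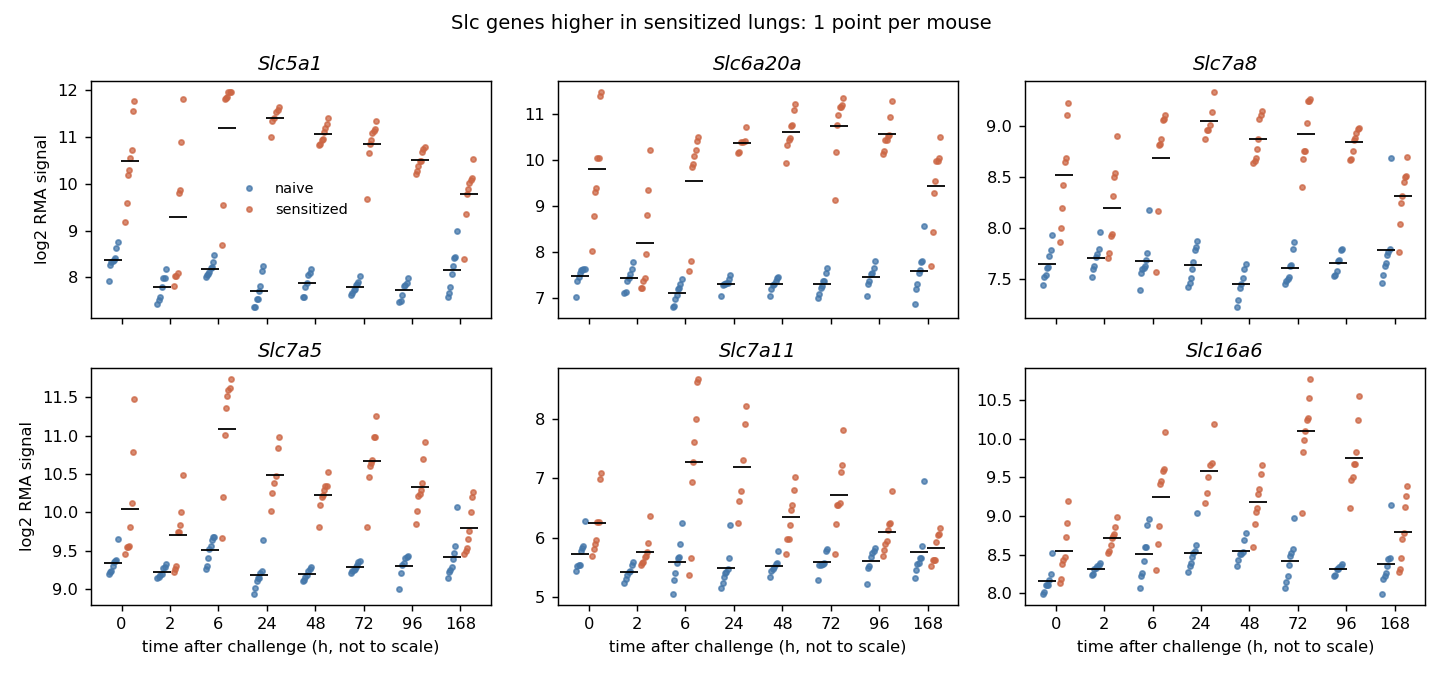
Level of 6 Slc genes in every mouse, on the log2 scale, by time after challenge. Each point is 1 mouse, points of a group are spread sideways in order of value, and short lines are group means. Slc5a1 and Slc6a20a are apart between the arms from 6 to 96 h, and sensitized mice at 2 h fall on both sides of the naive range's upper end.

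Other amino acid carriers moved in opposite directions. Family 38 holds the sodium-coupled neutral amino acid transporters. Of its 7 members 2 had a higher and 4 a lower mean difference (33.3% and 39.2% of all genes), with a median of -0.04. Slc38a1 (SNAT1, a glutamine carrier) ran from 11.7 to 12.14 (median 11.98) in naive and from 12.56 to 12.77 (median 12.61) in sensitized mice at 24 h. That was a difference without overlap of 0.67 ± 0.08 (adjusted p = 6.22e-11, limma), called at 6 times. Slc38a4 (SNAT4), in contrast, ran from 10 to 10.56 (median 10.28) in naive mice and from 8.48 to 9.07 (median 8.88) in sensitized mice at 24 h. All 6 sensitized mice lay below every naive mouse, by -1.43 ± 0.19 (adjusted p = 3.71e-10). It was the lowest of the 246 genes by mean difference, at -0.82 ± 0.06, and its second probe set gave -0.42.

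At 6 h Slc38a4 ran from 8.16 to 10.23 (median 8.75) in sensitized and from 10.03 to 10.64 (median 10.35) in naive mice, with 7 of 8 sensitized mice below all naive mice. The difference of -1.42 ± 0.17 (adjusted p = 2.14e-11) stood between -1.6 and -1.3 whichever mouse of that time was left out. Sensitized replicates 2 and 3 were the closest to naive mice at 6 h in this gene and in Slc5a1, Slc6a20a, Slc7a5, Slc7a11 and Slc39a14. Without replicate 3 the 6 h difference of Slc5a1 went from 3.01 to 3.36, and the count of carriers called at 6 h lay between 135 and 163 over all single mice left out.

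Family 6 holds carriers of neurotransmitters and amino acids, and beside Slc6a20a most of its members were lower. Of 11 members 2 had a higher and 6 a lower mean difference (33.3% and 39.2% of all genes), with a median of -0.15. Slc6a15, a carrier of branched-chain amino acids, ran from 7.12 to 7.36 (median 7.19) in naive and from 5.06 to 7.4 (median 5.66) in sensitized mice at 6 h. Sensitized replicate 3 was above all naive mice and the other 7 were below all of them, and the difference was -1.29 ± 0.16 (adjusted p = 1.33e-11, limma). Slc6a4, the serotonin carrier, ran from 9.35 to 10.11 (median 9.56) in naive and from 8.56 to 9.38 (median 8.81) in sensitized mice at 6 h. Those ranges touched only at the edge, at -0.76 ± 0.12 (adjusted p = 2.22e-08), and Slc6a4 was also called lower at 24, 72 and 96 h. The list of 8 mast cell and platelet genes differed by -0.02 at 6 h and the endothelial list by -0.18 at 6 h, -0.19 at 24 h, -0.24 at 72 h and -0.22 at 96 h, and their part in the result was not tested. Slc6a14, a broad amino acid carrier of airway epithelium, was called only at 96 h, at -0.55 ± 0.12 (adjusted p = 0.000119), with 7 of 8 sensitized mice below all naive mice.

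Slc6a17, a vesicular amino acid carrier known from neurons, was the other member of family 6 with a higher mean difference (0.44 ± 0.03), and it rose late. At 6 h its difference was 0.01 ± 0.1 (adjusted p = 0.944). At 96 h it ran from 6.75 to 7.35 (median 7.1) in naive and from 7.8 to 8.39 (median 8.02) in sensitized mice. The groups did not overlap, at 0.98 ± 0.1 (adjusted p = 3.82e-14), and 0.5 ± 0.1 was still called at 168 h. Its second, dimmer probe set had a mean difference of 0.03, so the call rests on 1 probe set.

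Slc6a2, the noradrenaline carrier, changed direction over the course. At 2 h naive mice ran from 11.18 to 11.52 (median 11.43) and sensitized mice from 11 to 12.45 (median 12.32). Of the sensitized mice 7 lay above all naive mice and replicate 3 below all of them, and the difference was 0.75 ± 0.19 (adjusted p = 0.0108, limma). At 6 h it was -0.54 ± 0.18 (adjusted p = 0.00781), and without the 10 arrays with squamous or muscle signal -0.39 (adjusted p = 0.107). At 168 h it was 0.63 ± 0.18 (adjusted p = 0.0245), and 0.36 (adjusted p = 0.176) without naive replicate 4, whose level of 9.21 lay far under the other naive mice (11.01 to 11.8). The call at 2 h was kept in all 15 fits without 1 mouse and without the 10 arrays (0.7, adjusted p = 0.0233). Calls in both directions at different times occurred in 17 of the 246 genes (7.81% of all genes).

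Glutamate carriers of family 1 included Slc1a2 (GLT-1), which ran from 7.83 to 8.26 (median 8.06) in naive and from 6.6 to 7.42 (median 7.04) in sensitized mice at 24 h. The groups were apart by -1.01 ± 0.12 (adjusted p = 1.46e-11, limma), but the gene's second, dimmer probe set showed 0.05 (adjusted p = 0.641). Slc1a3, its astrocyte relative GLAST, had a mean difference of -0.26. Slc1a5, the glutamine carrier ASCT2, differed by 0.21 ± 0.06 at 2 h (adjusted p = 0.0186) and by 0.17 ± 0.05 at 6 h (adjusted p = 0.00502), and its second probe set went lower at 24 h. Substrate classes are made of whole families and so hold some members of another role. In the 45 genes of the amino acid and peptide families, Slc7a6os and Slc43a3 included, 12 were higher and 22 lower at 6 h (24.6% and 33.2% of all genes), with a median of -0.14 against -0.04 for all genes.

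Peptide carriers of family 15 split. Slc15a3 (PHT2), which moves histidine and peptides out of lysosomes in macrophages and dendritic cells, ran from 9.96 to 10.56 (median 10.26) in naive and from 10.13 to 12.18 (median 11.67) in sensitized mice at 6 h. Of 8 sensitized mice 7 lay above all naive mice, at a difference of 1.23 ± 0.14 (adjusted p = 4.13e-12, limma). Slc15a2 (PEPT2), the high-affinity peptide carrier of airway and alveolar epithelium, was lower by -0.53 ± 0.08 at that time (adjusted p = 1.59e-08). Its other probe sets differed by -0.1 and -0.05, neither called. The 8 macrophage genes had a median of 10.57 in naive and 11.08 in sensitized lungs at 6 h, and their part in the result for Slc15a3 was not tested.

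In the families of sugar carriers (2, 5, 37, 45 and 50), 8 of 24 genes had a higher and 9 a lower mean difference. Over all genes these shares were 33.3% and 39.2%. Among the 24 are Slc5a8, Slc5a5 and Slc2a4rg-ps, which carry no sugar. Slc2a6 (GLUT6), a glucose carrier of macrophage lysosomes, ran from 8.11 to 8.66 (median 8.26) in naive and from 9.03 to 9.41 (median 9.25) in sensitized mice at 24 h. The arms were apart by 0.93 ± 0.17 (adjusted p = 5.41e-06, limma). Slc2a3 (GLUT3), the high-affinity glucose carrier of neurons and leukocytes, was called at 24, 48 and 72 h, with 0.56 ± 0.14 at 72 h (adjusted p = 0.000726). Slc2a1 (GLUT1), the common basal glucose carrier, was 0.45 ± 0.07 higher at 6 h (adjusted p = 5.55e-08) and 0.2 or less at every other time.

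Slc37a2, an exchanger of sugar phosphate in macrophages, was at 8.43 to 9.08 (median 8.65) in naive and 9.47 to 10.21 (median 9.72) in sensitized mice at 24 h. The difference of 1.05 ± 0.14 (adjusted p = 1.28e-09, limma) stood without overlap, and the macrophage list moved with it, from a median of 10.47 to 11.11. Lower members included Slc2a9, the urate carrier, at a mean difference of -0.25 and called at 6 or more times. Slc2a4 (GLUT4), the insulin-responsive carrier of muscle and fat, was called only at 0 h, by -0.8 ± 0.3 (adjusted p = 0.0367). It was at -0.61 (adjusted p = 0.0729) without the 10 arrays, and the skeletal muscle list reached 12.53 in naive and 7.17 in sensitized lungs at 0 h. The adipocyte list ran from 8.13 to 9.19 in naive and from 6.75 to 7.99 in sensitized lungs then, without overlap, and the cardiac muscle list differed by -0.72. The part of these lists was not tested.

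Carboxylate carriers were mostly higher. All 4 measured members of family 13, which take up citrate, dicarboxylates and sulfate with sodium, had a higher mean difference (33.3% of all genes). Their median was 0.49. Every deposited probe set reached 7.03 or more on some array. If signal decided which were deposited, a dim member could be measured only through sensitized mice, which was not tested. Slc13a5, the citrate carrier, ran from 5.75 to 6.22 (median 5.88) in naive and from 6.84 to 7.92 (median 7.21) in sensitized mice at 24 h. The arms did not overlap, at 1.38 ± 0.22 (adjusted p = 1.01e-07, limma). Its difference at 0 h was 0.91 ± 0.2, and 0.65 (adjusted p = 0.011) without sensitized replicate 6. Slc13a2 and Slc13a3, both dicarboxylate carriers, each differed by 0.9 at 24 h (SE 0.16 and 0.19, adjusted p = 2.46e-06 and 3.94e-05). Slc13a4, a sulfate carrier, was called only at 96 and 168 h, at 0.28 ± 0.11 and 0.39 ± 0.11.

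Family 16 holds the monocarboxylate carriers. Of its 11 members 7 had a higher and 3 a lower mean difference (33.3% and 39.2% of all genes), with a median of 0.11. Slc16a6 led it, at 8.06 to 8.98 (median 8.42) in naive and 9.04 to 10.78 (median 10.17) in sensitized mice at 72 h. All sensitized mice lay above the naive ones, by 1.68 ± 0.17 (adjusted p = 1.13e-14, limma). Slc16a6, a carrier of ketone bodies and taurine, was at its highest difference at 72 and 96 h. Slc16a1 (MCT1), the widespread carrier of lactate and pyruvate, ran from 11.29 to 11.72 (median 11.46) in naive and from 11.93 to 12.22 (median 12.11) in sensitized mice at 24 h. That difference was 0.64 ± 0.1 (adjusted p = 5.12e-08), again without overlap.

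Slc16a3 (MCT4), the lactate exporter of glycolytic cells, differed less, by 0.46 ± 0.15 at 24 h (adjusted p = 0.00787). Slc16a11, a pyruvate carrier linked to lipid metabolism, went down by -0.75 ± 0.16 at 24 h (adjusted p = 8.83e-05), and its difference at 168 h was higher than that at 24 h by 0.92 ± 0.22. Both carboxylate families together had 11 of 15 members higher and 3 lower by mean difference (33.3% and 39.2% of all genes). Their median was 0.25, against 0 over the 246 carriers. With centred arrays 10 of the 15 were higher and 3 lower, with a median of 0.22.

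**Figure D3:**
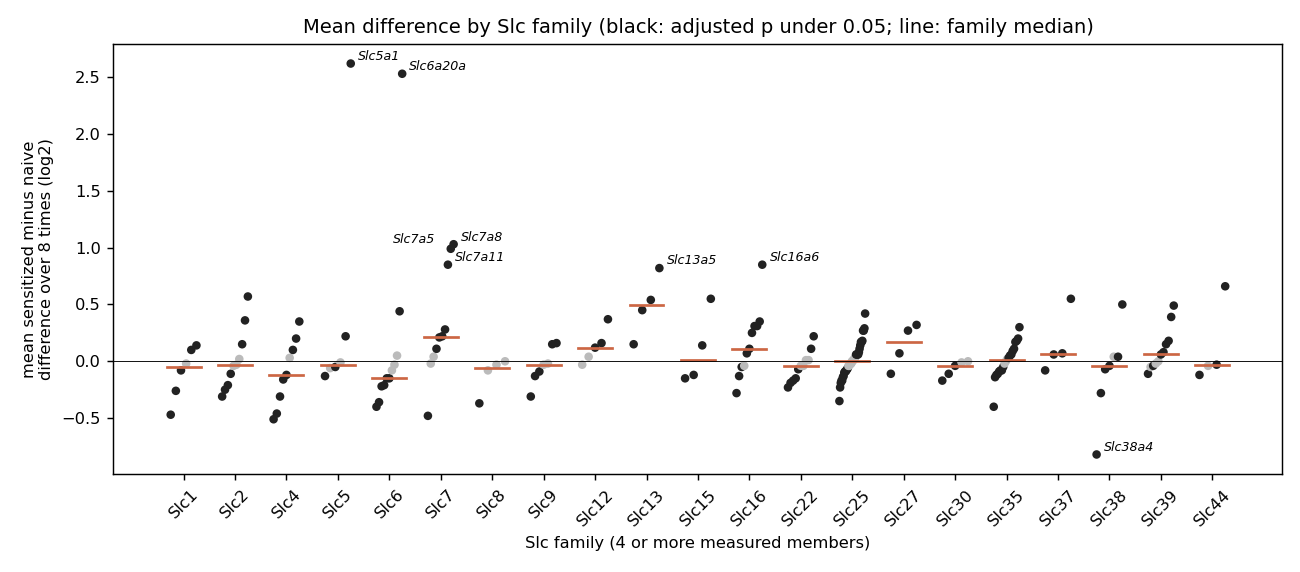
Mean difference over the 8 times (log2, sensitized minus naive) of each Slc gene, in families with 4 or more measured members. Black points are called and grey ones are not, and the line is the family's median. Medians run from -0.15 in family 6 to 0.17 in family 27, 0.21 in family 7 and 0.49 in family 13, and single genes such as Slc5a1 and Slc6a20a lie far from their families.

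In family 12, the cation chloride cotransporters, 3 of 5 had a higher and 0 a lower mean difference (median 0.12, limma). Over all genes these shares were 33.3% and 39.2%. Slc12a8, a carrier of polyamines and nicotinamide mononucleotide, ran from 6.64 to 6.91 (median 6.75) in naive and from 7.08 to 7.71 (median 7.37) in sensitized mice at 24 h. The arms were apart by 0.58 ± 0.11 (adjusted p = 4.55e-06). Slc24a3, a potassium-dependent sodium calcium exchanger, ran from 10.57 to 10.74 (median 10.64) in naive and from 9.81 to 10.24 (median 10.11) in sensitized mice at 72 h. It was lower in every sensitized mouse, by -0.59 ± 0.07 (adjusted p = 4.98e-11), and called lower at 6 times. Slc8a3, a sodium calcium exchanger of muscle and brain, was lower by -0.65 ± 0.14 at 6 h (adjusted p = 4.69e-05), and Slc9a2, a sodium proton exchanger of epithelia, by -0.61 ± 0.15 at 24 h (adjusted p = 0.000378).

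The families of ion and acid carriers had 13 of 37 genes higher and 12 lower by mean difference (33.3% and 39.2% of all genes). Counted among the 37 are the urea carrier Slc14a1 and the non-transporters Slc9a3r1, Slc9a3r2 and Slc4a1ap. In family 4, the bicarbonate carriers, Slc4a2 (AE2), the basolateral chloride-bicarbonate exchanger of epithelia, ran from 10.92 to 11.22 (median 11.1) in naive and from 11.43 to 11.62 (median 11.53) in sensitized mice at 24 h. Apart in all mice, it differed by 0.44 ± 0.07 (adjusted p = 8.2e-08, limma), and it was called at all times but 168 h. Slc4a5, a sodium bicarbonate cotransporter, was lower by -1.0 ± 0.13 at 6 h (adjusted p = 3.91e-10), from 10.07 to 10.38 (median 10.21) in naive and 8.31 to 10.32 (median 8.99) in sensitized mice. Of the 8 sensitized mice 6 were below all naive mice. Slc4a10, also sodium-coupled, was lower by -0.77 ± 0.13 at 6 h (adjusted p = 1.75e-07), and Slc4a4, the electrogenic cotransporter of airway secretion, by -0.34 ± 0.08 at 24 h (adjusted p = 0.000177).

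Slc4a1 (band 3), the anion exchanger of red cells, had the lowest mean difference of family 4, at -0.51, but varied widely among naive mice. At 6 h it ran from 7.93 to 10.23 (median 9.39) in naive and from 7.85 to 9.2 (median 8.36) in sensitized mice. The ranges overlapped, the difference was -0.77 ± 0.28 (adjusted p = 0.0133, limma), and 6 h was the only time it was called. Only 1 of 8 erythroid markers, Alas2, was measured, and it differed by -0.32 at 6 h and -0.5 at 72 h. Blood content was not tested as a part of this result.

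Slc34a2, the sodium phosphate cotransporter of alveolar type II cells, differed little between the arms, although its level changed with time in naive mice (range of time means 0.22, adjusted p = 3.25e-10). Over all 8 times naive mice lay between 13.61 and 14.04 and sensitized mice between 13.56 and 14.02. Differences stayed between -0.09 ± 0.03 (6 h, adjusted p = 0.0176) and 0.09 ± 0.04 (48 h, adjusted p = 0.0405), both called and both lost without the 10 arrays (adjusted p = 0.12 and 0.0501). The 6 measured alveolar type II genes differed by -0.15 at 6 h and by at most 0.08 either way at the other times. Slc26a6, an anion exchanger of epithelia, was higher by 0.38 ± 0.09 at 24 h and 0.4 ± 0.08 at 96 h (adjusted p = 0.000158 and 4.4e-05). The scaffold Slc9a3r1 (NHERF1), which anchors CFTR and sodium proton exchangers at the apical membrane, was higher by 0.3 ± 0.06 at 72 h (adjusted p = 5.89e-06).

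Family 39 brings zinc, manganese and iron into the cytosol. Of its 11 members 6 had a higher and 2 a lower mean difference (median 0.06). Family 30 moves zinc out of the cytosol, and 3 of its 5 members had a lower and 0 a higher one (median -0.04, limma). Over all genes 33.3% were higher and 39.2% lower. With centred arrays family 39 had 5 higher and 3 lower (median 0.03), and family 30 had 0 and 3 (median -0.06). Slc39a14 (ZIP14), an acute phase carrier of zinc and iron, ran from 9.21 to 9.71 (median 9.28) in naive and from 9.15 to 11.63 (median 11.17) in sensitized mice at 6 h. Of 8 sensitized mice 6 were above all naive mice and replicate 3 was below all of them, and the difference was 1.44 ± 0.16, or 2.71-fold (adjusted p = 1.36e-12, limma). It went up from 0 h by 1.25 ± 0.23 (adjusted p = 2.93e-05), all 4 of its probe sets were higher at 6 h, and by 168 h the difference was -0.04 ± 0.16 (adjusted p = 0.935).

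For Slc39a8 (ZIP8), a close relative of ZIP14, the difference at 6 h was 0.02 ± 0.04 (adjusted p = 0.659), and it was called lower by -0.12 at 72 and 96 h. Slc39a11 (ZIP11) was called higher at 6 times, with 0.76 ± 0.1 at 24 h (adjusted p = 1.11e-09). The zinc exporter Slc30a1 (ZnT1) was lower by -0.37 ± 0.06 at 72 h (adjusted p = 3.18e-07). Slc41a2, a magnesium carrier, was higher by 0.69 ± 0.08 at 6 h (adjusted p = 1.69e-12), in 7 of 8 sensitized mice above all naive mice. Slc11a1 (NRAMP1), the metal carrier of phagosomes, was higher by 0.51 ± 0.13 at 6 h (adjusted p = 0.000449). Slc40a1 (ferroportin), the cell's iron exporter, was lower by -0.5 ± 0.14 at 72 h (adjusted p = 0.00257), at 9.9 to 10.51 (median 10.34) in sensitized and 10.57 to 11.1 (median 10.68) in naive mice, which did not overlap.

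At 168 h the difference of Slc40a1 was -0.44 ± 0.14 (adjusted p = 0.0571), and -0.22 (adjusted p = 0.335) without naive replicate 4, which stood at 12.37 where the other naive mice were at 10.4 to 10.85. Among 14 listed genes of iron and zinc handling outside the carriers, 11 were measured. At 24 h 7 of them were higher and 2 lower (22.8% and 24.9% of all genes), with a median of 0.46 against -0.02 for all genes. For Slc11a2 (DMT1), the importer of ferrous iron, probe sets disagreed at 6 h, with 0.35 for the one used and -0.44 for another, so no direction is given for it.

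Mitochondrial carriers of family 25 moved in both directions with a median of 0. Of the 38, 14 had a higher and 13 a lower mean difference (33.3% and 39.2% of all genes). With arrays centred on their medians these counts were 9 and 16, and the median was -0.02. Slc25a35, a carrier of unsettled substrate, ran from 9.33 to 9.85 (median 9.59) in naive and from 10.22 to 10.48 (median 10.25) in sensitized mice at 48 h. The arms were apart, at 0.7 ± 0.08 (adjusted p = 6.66e-12, limma). The 0 h difference was 0.6 ± 0.08, those at 2 and 168 h were -0.1 ± 0.08 and 0.01 ± 0.08, and the gene had the largest F of all carriers for change of the difference with time, which weighs the change against its error (moderated F of limma, adjusted p = 7.38e-11). Slc25a27, an uncoupling protein known from brain, ran from 9.59 to 10.04 (median 9.86) in naive and from 7.86 to 9.74 (median 8.52) in sensitized mice at 6 h. With 7 of 8 sensitized mice below all naive mice, it differed by -1.21 ± 0.13 (adjusted p = 4.09e-13), and all 3 of its probe sets were lower.

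Others of the family moved less. Slc25a13 (citrin), the aspartate-glutamate carrier, was higher by 0.47 ± 0.08 at 24 h (adjusted p = 1.29e-06). Slc25a3, the phosphate carrier that feeds ATP synthase, was 0.52 ± 0.08 higher at 6 h without overlap (adjusted p = 6.99e-08) and -0.26 ± 0.08 lower at 168 h (adjusted p = 0.0469). Slc25a37 (mitoferrin 1), which brings iron into mitochondria for heme, was lower by -0.27 ± 0.09 at 24 h (adjusted p = 0.012). Slc25a1, the citrate carrier, was 0.26 ± 0.07 higher at 48 h (adjusted p = 0.00204). Slc8b1, the sodium calcium exchanger of mitochondria, was -0.37 ± 0.05 lower at 6 h (adjusted p = 7.44e-09) and within 0.1 of naive mice at 48 h and later.

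Carriers of nucleotide sugars, family 35, supply the Golgi with building blocks for glycoproteins. Of the 20, 9 had a higher and 8 a lower mean difference (33.3% and 39.2% of all genes), with a median of 0.01. With centred arrays 6 were higher and 8 lower, with a median of -0.01. Slc35c1, the GDP-fucose carrier, was 0.55 ± 0.08 higher at 24 h (adjusted p = 1.22e-08). Slc33a1, which carries acetyl-CoA into the secretory pathway, was 0.54 ± 0.08 higher at 72 h (adjusted p = 2.82e-08). Slc35f3, a putative thiamine carrier, was at the other end, at -0.9 ± 0.15 at 6 h (adjusted p = 1.1e-07).

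Vitamin and organic ion carriers had 7 of 32 members higher and 14 lower by mean difference (33.3% and 39.2% of all genes). The thiamine carrier Slc19a3 (THTR2) ran from 7.97 to 8.44 (median 8.22) in naive and from 6.62 to 7.38 (median 7.14) in sensitized mice at 24 h. All sensitized mice were below all naive mice, by -1.16 ± 0.16 (adjusted p = 8.08e-10, limma), and the gene was called lower at 6 times. Slc47a1 (MATE1), which extrudes organic cations, ran from 7.17 to 8.34 (median 7.79) in naive and from 6.24 to 7.76 (median 7.04) in sensitized mice at 72 h, an overlapping difference of -0.82 ± 0.24 (adjusted p = 0.00366). Slc10a6, a steroid sulfate carrier, was lower by -0.83 ± 0.12 at 24 h (adjusted p = 5.58e-09). In family 22, the organic ion carriers, 5 of 11 had a lower and 2 a higher mean difference, with the carnitine carrier Slc22a5 (OCTN2) lower by -0.46 ± 0.1 at 96 h (adjusted p = 0.000107). Slc17a9, the vesicular ATP carrier, was the highest of the 7 by mean difference, at 8.09 to 8.58 (median 8.42) in naive and 9.05 to 9.44 (median 9.16) in sensitized mice at 24 h. It differed by 0.81 ± 0.1 without overlap (adjusted p = 1.71e-11) and was still 0.47 ± 0.09 higher at 168 h (adjusted p = 0.000283).

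Among carriers of lipids, choline and nucleosides, 8 of 13 had a higher and 4 a lower mean difference (33.3% and 39.2% of all genes). With centred arrays 6 were higher and 5 lower. Slc44a4, which carries choline and thiamine pyrophosphate in epithelia, ran from 9.15 to 9.47 (median 9.37) in naive and from 9.89 to 10.78 (median 10.38) in sensitized mice at 48 h. The arms were apart by 1.01 ± 0.1 (adjusted p = 2.8e-14, limma), and 0.44 ± 0.1 remained at 168 h, when all 8 sensitized mice still lay above all naive mice (adjusted p = 0.00205). At 2 h the difference was only 0.03 ± 0.1 (adjusted p = 0.911), while it was 0.76 ± 0.1 at 0 h. Slc27a3, an acyl-CoA synthetase of the fatty acid transport family, was 0.87 ± 0.11 higher at 6 h (adjusted p = 1.73e-11). Slc27a1 of the same family was -0.47 ± 0.1 lower then (adjusted p = 1.52e-05), and Slc29a3, the lysosomal nucleoside carrier of macrophages, was 0.35 ± 0.06 higher at 72 h (adjusted p = 8.04e-07).

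**Figure D4:**
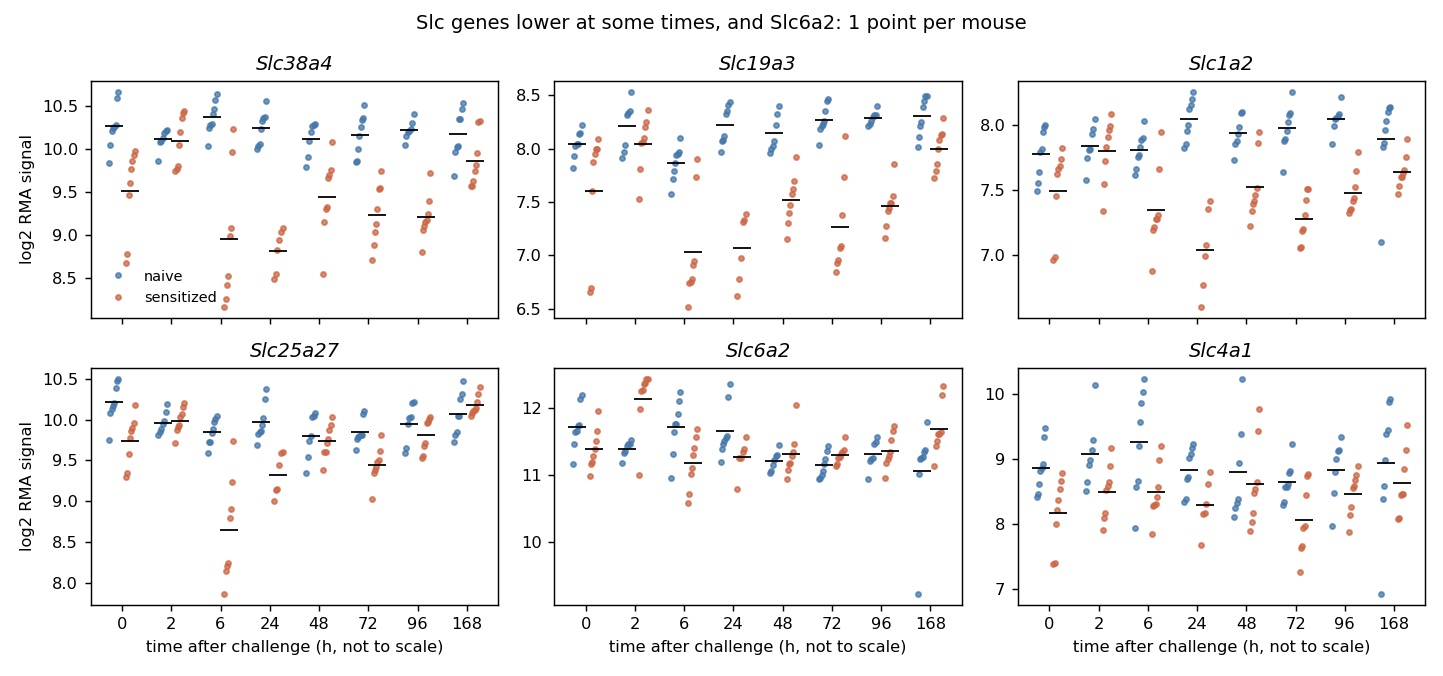
Level of 6 Slc genes in every mouse, on the log2 scale, by time after challenge, drawn with 1 point per mouse and short lines for group means. Slc38a4, Slc19a3 and Slc1a2 are lower in sensitized mice without overlap at 24 h, and Slc25a27 is lowest at 6 h. Slc6a2 is higher at 2 h in 7 of 8 sensitized mice, and at 168 h 1 naive mouse lies at 9.21.

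The difference between the arms depended on the time in 151 of the 246 carriers (61.4%, against 62.5% of all genes) by the moderated F over the changes since 0 h. Any difference over the 8 times was called in 211 (85.8%, against 82.5% of all genes). From 0 to 6 h the difference moved up in 21 carriers and down in 41 (25.2%, against 24.6% of all genes, with 10% up and 14.6% down). From 0 to 24 h 9 moved up and 4 down (5.28%, against 5.49%, with 3.39% up and 2.11% down). From 0 to 2 h it was 11 up and 16 down (11%, against 6.69%, with 2.34% up and 4.34% down). Between 24 and 168 h the difference moved up in 35 and down in 41 (30.9%, against 27.2%, with 13.8% up and 13.4% down). The largest of these falls were those of Slc5a1, Slc7a11 (-1.64 ± 0.36) and Slc6a20a (-1.21 ± 0.47), and the moves upward included those of Slc38a4 (1.12 ± 0.26), Slc7a10 (0.96 ± 0.24) and Slc16a11. Slc6a2 moved by 1.02 ± 0.27, but without naive replicate 4 its difference at 168 h is 0.36 in place of 0.63.

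The change from 0 to 48 h was called in 0 of the 246 carriers and 0% of all genes (limma), and 28 carriers had an unadjusted p under 0.05. From 0 to 72 h 2 moved up and 2 down (2.54% of all genes, 1.48% up and 1.06% down). From 0 to 96 h it was 3 and 6 (3.12%, 1.34% up and 1.78% down) and from 0 to 168 h 2 and 3 (1.94%, 0.965% up and 0.973% down). These changes share the 0 h mice, of which sensitized replicates 1 and 6 were the highest in Slc5a1, Slc6a20a, Slc13a5 and Slc7a5. At 2 h the 9 called carriers were Slc5a1, Slc6a2, Slc7a8 (0.49 ± 0.15), Slc22a12 (0.24 ± 0.06), Slc4a2 (0.22 ± 0.07), Slc1a5 (0.21 ± 0.06), Slc43a3 (0.2 ± 0.05), Slc41a1 (0.16 ± 0.04) and, lower, Slc50a1 (-0.13 ± 0.04). Among them Slc43a3, a purine base carrier of endothelium, was apart in all mice, at 13.11 to 13.27 in naive and 13.33 to 13.49 in sensitized lungs (adjusted p = 0.0068), and it was called lower at 0, 24, 48 and 96 h. At 168 h the 15 called carriers were led by Slc6a20a (1.84 ± 0.32), Slc5a1 (1.62 ± 0.31), Slc6a2 (0.63 ± 0.18, adjusted p = 0.0245, and 0.176 without naive replicate 4 by limma), Slc7a8 (0.53 ± 0.15) and Slc6a17. The 3′ minus 5′ actin difference, a measure of RNA quality, had a mean of 1.21 in naive (0.8 to 1.45) and 1.5 in sensitized lungs (1.26 to 1.71) at 168 h. At 6 h the means were 1.23 and 1.05, and at 24 h 1.1 and 0.97, with sensitized lungs lower. The part of this measure in the calls was not tested.

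**Figure D5:**
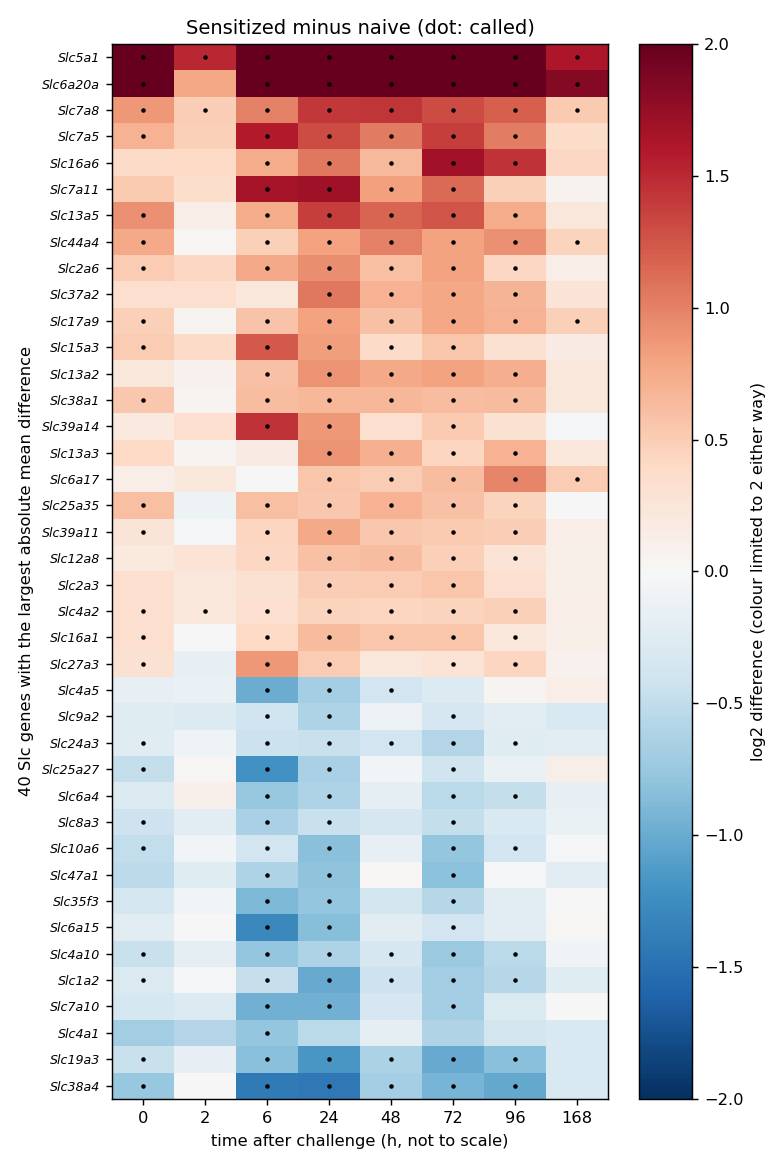
Sensitized minus naive difference (log2) of the 40 Slc genes with the largest absolute mean difference, by time after challenge, with colour limited to 2 either way. Dots mark calls. The columns of 2 and 168 h hold few dots, and genes in the lower rows are bluest at 6 and 24 h.

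Naive lungs were not constant. The level of 85 carriers changed over the 8 times in naive mice (34.6% of the members, against 38.4% of all genes, by limma's moderated F), and the widest range of time means belonged to Slc5a8, a sodium-coupled carrier of short-chain carboxylates, at 1.3 (adjusted p = 0.197). Slc25a33, a mitochondrial pyrimidine carrier, had naive means from 8.4 at 96 h to 9.13 at 6 h (adjusted p = 3.96e-11). Slc16a7 (MCT2), a pyruvate carrier of high affinity, went from 9.43 at 96 h to 10.15 at 6 h (adjusted p = 1.21e-09). Slc14a1, the urea carrier of red cells and endothelium, went from 7.56 at 0 h to 8.37 at 48 h (adjusted p = 0.0114). The 3′ minus 5′ actin difference in naive mice went from a mean of 1.4 at 0 h to 1.09 at 48 h, and its part in these changes was not tested.

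Agreement between probe sets could be checked for the 100 carriers with more than 1. In 8 of them (Slc11a2, Slc15a2, Slc1a5, Slc22a15, Slc25a12, Slc35a2, Slc38a10 and Slc39a9) probe sets of the same gene had mean differences called in opposite directions. At 6 h 24.6% of all genes were higher and 33.2% lower. Of genes that work beside carriers, 7 of 13 listed genes of glucose uptake and glycolysis were measured. At 6 h 5 were higher and 1 lower (median 0.58, against -0.04 for all genes). Of 11 listed genes of the amino acid response 10 were measured, with 4 higher and 1 lower at 6 h (median 0.14). Of 14 listed organic anion carriers and chaperones outside the Slc symbols, 9 were measured, with 4 higher and 2 lower at 6 h (median -0.03).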

How the data were processed

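Lung RNA of 123 mice was measured, 1 array per mouse. The authors deposited log2 signals per probe set, and the submitters' processing notes name RMA with no version. RMA equalizes the arrays' distributions and shrinks differences between dim probe sets. Array medians lay between 9.32 and 9.44. The deposited values cover 25697 probe sets, of which 22478 carry 1 gene symbol in the platform annotation, 259 several (never used to name a gene) and 2950 none here. Every deposited probe set reached 7.03 or more on some array. If signal decided which were deposited, dim genes such as Slc13a5 or Slc7a11 could be measured only through the arm where they were higher. The probe set with the highest mean stood for a gene. A single Slc probe set with several symbols was left out.

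limma 3.58.1 (lmFit and eBayes, R 4.3.3, data.table version 1.17.8) estimated the 16 group means from all arrays and 13053 genes, with 107 residual degrees of freedom. Every adjusted p is limma's, by Benjamini-Hochberg within a contrast over all genes, threshold 0.05. This step was tested on simulated data. Marker lists, motifs and figures used Python 3.11.15, numpy 2.4.6, pandas 2.3.3 and matplotlib 3.10.9. The number of arrays limits the precision. Labels give animal numbers and no replicate numbers, so replicate numbers here follow sample order and pair nothing.

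The rule for named genes took, at each time, the 5 highest and 5 lowest called differences, the largest absolute mean difference in each family of 5 or more, the 10 largest F values for change with time, the 5 widest naive ranges and a panel of 38 carriers, of which 34 were analysed here. Further carriers stand beside their family's count. Members, lists, families and lead genes were chosen with earlier results of these data known. Alternatives were array weights, a trended robust prior, the mean of all probe sets, a filter on dim genes, arrays centred on their medians, fits of only 2 groups and each mouse left out. Leaving out the 10 arrays with squamous or muscle signal, and single mice at 6, 48, 72 and 96 h, was chosen after seeing the data.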

Additional observations from a re-analysis of the deposited data

Results flagged for a closer look

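The level of Slc7a11 in naive replicate 8 at 24 h was 6.22, where the other naive mice were at 5.16 to 5.65. This array also carried squamous epithelium signal. For Slc39a14 in naive mice at 6 h, replicate 6 was at 9.71 and the others at 9.21 to 9.33. Slc6a2 in sensitized mice at 2 h was 11 in replicate 3 and 12 to 12.45 in the others. In naive mice at 0 h, Slc6a20a was 7.01 in replicate 2 (others 7.36 to 7.63) and Slc7a5 was 9.65 in replicate 3 (others 9.2 to 9.38). At 168 h naive replicate 4 stood at 9.21 for Slc6a2 (others 11.01 to 11.8) and at 12.37 for Slc40a1 (others 10.4 to 10.85), and sensitized replicate 1 at 9.95 for Slc40a1 (others 10.33 to 10.53). These mice lay farther from the rest of their group than Dixon's limit allows. 74 groups of the lead genes were checked and 8 had such a mouse, where chance gives about 5%. The lead genes were chosen with results known, and some flags share a mouse. The 8 of 74 therefore does not measure an excess over chance.

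The difference between the arms changed with time in 151 carriers by limma's test of that change, and in 76 carriers the difference at 168 h differed from that at 24 h.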

How the results depend on the processing

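Array weights moved the count of called carriers to 27 at 2 h, 37 at 168 h, 131 for the change from 0 to 6 h, 83 for the change from 0 to 24 h and 167 over time in naive mice. Fits of only the 2 groups of a time gave 7 at 168 h. The cause was not tested. Leaving out 1 mouse gave 39 to 84 calls at 0 h, 5 to 14 at 2 h, 135 to 163 at 6 h, 96 to 123 at 24 h, 82 to 104 at 48 h, 102 to 124 at 72 h, 86 to 104 at 96 h and 10 to 20 at 168 h. Of 73 named carriers at their time of largest difference, 3 lost their call with array weights, 2 with centred arrays, 3 with the mean of all probe sets, 5 with only 2 groups and 4 without the 10 arrays. The filter on dim genes left 53 of the 73 to check. All other total counts of called carriers stayed within 1.5 times under the alternatives run. Some counts by direction or family moved more. With centred arrays the carriers lower at 96 h went from 39 to 60, and the higher members of family 25 from 14 to 9. No named carrier that was called at its time of largest difference changed direction at that time, and other reported times were not checked this way. No paired analysis was possible because the labels give animal numbers and no replicate numbers shared between groups.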
